A study of Mus musculus with 9 samples.

Results

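The genes described here encode the constitutive proteasome, the protease that degrades ubiquitin-tagged proteins in every cell, and the factors that assemble, activate or inhibit it. They are the protein-coding genes of a liver expression table whose symbols begin with Psma, Psmb, Psmc, Psmd, Psme, Psmf or Psmg and a digit. The inducible immunoproteasome genes Psmb8, Psmb9 and Psmb10 and 4 genes named as pseudogenes were left out. The rule found 47 genes among 54007 entries, of which 21929 were protein coding. Liver RNA came from C57BL/6 mice at postnatal day 98 that entered the study at 6 weeks of age, with 15 mice per group. The 3 groups were control mice (replicates 1, 2 and 4), mice on a high-fat diet (HFD; replicates 1, 2 and 3) and mice on a high-fat diet that were also gavaged with the gut bacterium Papillibacter cinnamivorans (HFD+Pc; replicates 1, 3 and 4). The labels do not say whether the control or HFD mice received a mock gavage, so bacterium and gavage cannot be told apart, and they do not say how many mice went into each library. The p-values therefore measure the spread between these libraries, 3 per group.

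The 20S core of the proteasome is a barrel of stacked rings, with alpha subunits (Psma genes) in the outer rings and beta subunits (Psmb genes) in the inner ones. Its proteolytic sites lie in Psmb5 (chymotrypsin-like), Psmb6 (caspase-like) and Psmb7 (trypsin-like). The 19S regulatory particle caps the core: a ring of ATPases (Psmc genes) unfolds substrates, and non-ATPase subunits (most Psmd genes) bind ubiquitin chains and remove them. Dedicated chaperones assist assembly, Psmg1 to Psmg4 for the alpha ring and Psmd5, Psmd9 and Psmd10 for the ATPase ring. The liver turns over much protein, and its proteasome genes are known targets of the transcription factor encoded by Nfe2l1, which is itself activated when the proteasome is impaired.

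Levels are in FPKM, which scales reads to gene length and library size, as deposited. Each difference between groups is a difference of mean log2(FPKM + 1), given with its SE. The added 1 shrinks the differences of genes with low values. "Rose" and "fell" are used for genes with a Benjamini-Hochberg adjusted p under 0.05 in limma, a linear model fitted here to 10988 genes that reached 1 FPKM in at least 3 libraries. The 3 comparisons share groups, so their values are set side by side and are not independent. Reads recovered from the FPKM steps came to 16279985 to 18641454 per library, and the tested proteasome genes held 42 to 3692 reads in a library. A count of 3 reads, the floor that counting error allows, is worth 0.16 to 0.179 FPKM for a 1 kb gene.

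Of the 47 genes, 44 reached the level needed for the test. The others were Psma8, an alpha subunit known from testis (mean 0.353 FPKM over the 9 libraries), Psmb11, a beta subunit known from thymus (at 0 in 8 libraries and 0.0122 FPKM in HFD replicate 2), and Psmc3ip, a recombination factor that carries a subunit-like symbol (0.0326 to 0.288 FPKM). Thus all 7 standard alpha and 7 standard beta genes, all 6 ATPase genes, 11 of 11 non-ATPase genes, 7 of 7 chaperone genes and 6 of 6 activator and inhibitor genes were tested. Among these, mean levels spanned 45.7-fold, from Psmg3 (1.61 FPKM) to the alpha subunit Psma6 (73.8 FPKM), with a median of 24 FPKM. Subunits of the particle sat higher than the chaperones that build it. Alpha genes ranged from 15.5 to 73.8 FPKM, beta genes from 16 to 57.7 FPKM, ATPase genes from 14.1 to 43.0 FPKM, and non-ATPase genes from 15.6 to 43.0 FPKM. The chaperones ranged from 1.61 to 11.8 FPKM and made up 4.21% of the summed level of the 44 genes.

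With HFD, the alpha ring and the Psmc and Psmd genes of the 19S cap stood higher in their summed levels, while the sums of the beta ring overlapped between groups. The summed FPKM of the 7 alpha genes was 209, 197 and 206 in the control libraries, 274, 232 and 250 in the HFD libraries, and 233, 249 and 252 in the HFD+Pc libraries, so that every library of both HFD groups was above every control library. For the 17 Psmc and Psmd subunits of the 19S particle the sums were 409, 390 and 382 in control and 454, 424 and 483 in HFD, again without overlap. Genes of 19S subunits with other symbols, such as Sem1, are not in these sums. In HFD+Pc the 19S sums were 402 in replicate 1 and 487 and 494 in replicates 3 and 4: the first lay within the control range and the other 2 were the highest of all 9. The 7 beta genes summed to 247, 228 and 227 in control, 258, 231 and 237 in HFD, and 237, 275 and 276 in HFD+Pc, with overlap between all groups. These sums are a description, with no test.

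**Figure D1:**
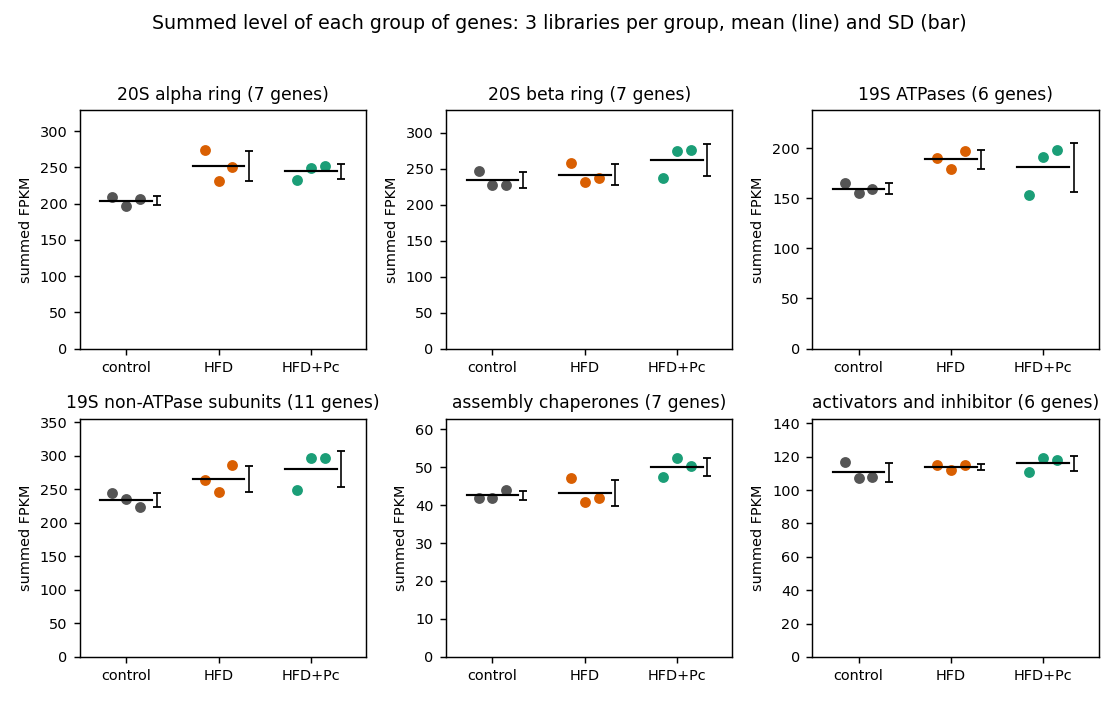
Summed FPKM of the tested genes of each role (vertical axes, from 0) in the control, HFD and HFD+Pc groups. Points are libraries, lines are means and bars are SD of 3 libraries; the alpha ring sums are 197 to 209 in control and 232 to 274 in HFD, and HFD+Pc replicate 1 is the low point (153) among the ATPase sums.

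In HFD against control, 8 of the 44 genes rose, 1 fell and 35 did not pass. The 8 are 18.2% of the proteasome genes, where 4.61% of all tested genes rose, and the 1 is 2.27%, where 5.35% of all genes fell. The groups did not overlap for 21 proteasome genes that were higher in HFD (47.7%, against 16.5% of all genes) and for 1 that was lower (2.27%, against 16.4%). Within groups these genes moved together. The median correlation of deviations from the group means was 0.615 for the 20S genes and 0.675 for the 19S genes, against 0.003 over all tested genes. Counts of proteasome genes in any comparison are thus not counts of independent genes. The difference was positive for 32 of 44 genes, with a median of 0.16, against a median of 0.00 over all tested genes. Scaling affects how such a shift reads. When the recovered reads were divided by plain library totals (limma-voom), 70.7% of all genes called in this comparison were higher in HFD, against 46.3% with the deposited FPKM, and the median over all genes became 0.08. Under that scaling 38 of the 44 proteasome genes were positive with a median of 0.25. The deposited values rest on a divisor that was 110.3% of the recovered total in HFD replicate 1 and 99.1% to 105.2% in the other 8 libraries. Leaving out 1 library at a time, 3 to 11 of the 44 genes passed, and the count fell below 6 without any 1 of the control replicates 1, 2 and 4 or of the HFD replicates 1 and 3 (4, 3, 5, 5 and 5 genes).

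**Figure D2:**
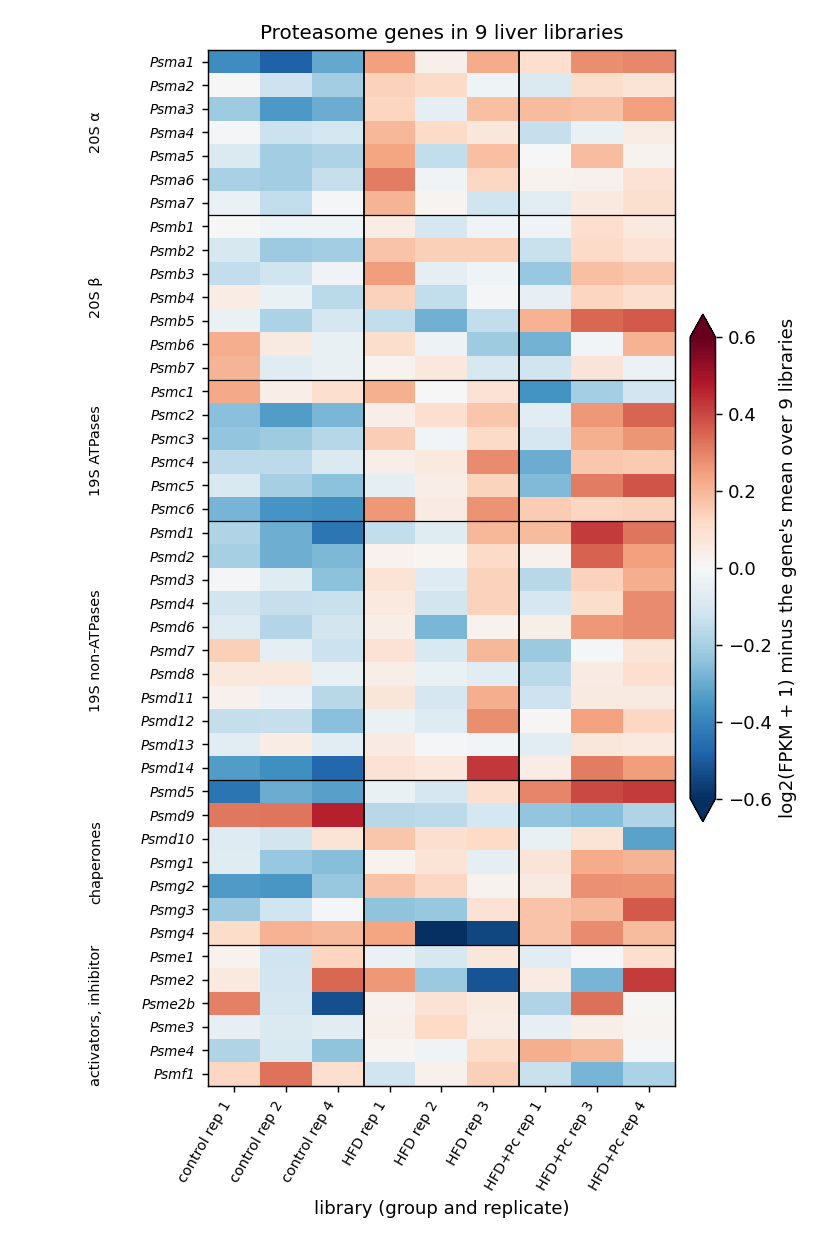
Each row is 1 of the 44 tested genes, ordered by role, and each column 1 library; colour gives log2(FPKM + 1) minus that gene's mean over the 9 libraries, with the darkest shades also standing for values beyond the scale. Control columns are mostly blue for alpha and 19S genes, Psmd9 runs opposite to the genes around it, and HFD+Pc replicate 1 is paler or blue where replicates 3 and 4 are red in the 19S rows.

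The promoters of 5 genes are shown to cover the calls with HFD and between the HFD groups: the 3 with the largest rises in HFD against control (Psma1, Psmc6 and Psmd14), the 1 called between the HFD groups (Psmb5) and the 1 that fell with HFD (Psmd9). The sequences are from RefSeq (build GRCm38.p6), 5′ to 3′ on the strand of the gene, from 250 bases before the start site down to that site or to the first annotated exon base. Capitals mark matches, on either strand, to TGACNNNGC (the core of the antioxidant response element, bound by factors of the Nfe2l1 and Nfe2l2 family), CCAAT (bound by NF-Y) or CCGGAAG (a core bound by ETS factors), and no marked matches overlap in these 5 windows.
Psma1, chr7:114276119-114276366, minus strand: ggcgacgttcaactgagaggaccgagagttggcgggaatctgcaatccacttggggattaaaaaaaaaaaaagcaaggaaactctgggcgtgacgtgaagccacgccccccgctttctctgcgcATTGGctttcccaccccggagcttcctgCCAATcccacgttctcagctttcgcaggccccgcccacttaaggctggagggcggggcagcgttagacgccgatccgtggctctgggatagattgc
Psmc6, chr14:45329574-45329787, plus strand: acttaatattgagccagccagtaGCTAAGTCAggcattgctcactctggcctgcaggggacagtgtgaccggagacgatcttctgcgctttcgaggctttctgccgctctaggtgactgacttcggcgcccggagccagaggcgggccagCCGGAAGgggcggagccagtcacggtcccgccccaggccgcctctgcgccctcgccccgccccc
Psmd14, chr2:61711444-61711693, plus strand: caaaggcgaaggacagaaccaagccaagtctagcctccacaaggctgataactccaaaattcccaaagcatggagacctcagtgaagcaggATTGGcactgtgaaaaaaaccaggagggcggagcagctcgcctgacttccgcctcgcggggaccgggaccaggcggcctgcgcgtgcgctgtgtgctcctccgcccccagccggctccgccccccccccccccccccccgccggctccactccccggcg
Psmb5, chr14:54618023-54618245, minus strand: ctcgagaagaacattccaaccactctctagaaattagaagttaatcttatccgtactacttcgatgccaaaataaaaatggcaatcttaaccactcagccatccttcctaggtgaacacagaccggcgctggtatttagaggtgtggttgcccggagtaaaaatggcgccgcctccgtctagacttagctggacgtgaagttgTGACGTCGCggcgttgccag
Psmd9, chr5:123227940-123228189, plus strand: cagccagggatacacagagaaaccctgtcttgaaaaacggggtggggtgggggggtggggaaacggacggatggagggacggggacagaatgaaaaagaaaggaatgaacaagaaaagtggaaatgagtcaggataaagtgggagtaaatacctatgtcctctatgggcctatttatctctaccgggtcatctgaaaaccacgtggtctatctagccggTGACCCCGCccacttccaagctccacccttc
The antioxidant core was present in Psmb5, 47 bases before the start, in Psmd9, 31 bases before it, and in Psmc6 on the opposite strand, 227 bases before it. Psma1 had a CCAAT match on each strand and Psmd14 a single one. Of these carriers of the antioxidant core, Psmc6 rose and Psmd9 fell with HFD, while Psmb5 rose only in HFD+Pc. The core was also present in Psmb6 and Psmd12, which passed in no comparison. Whether a match bears on the levels was not tested. Over the 250 bases before the start, 39 of the 47 genes had a promoter in the table. TGACNNNGC occurred in 5 of 39 (12.8%), against 11.5% of 27025 genes and 10.2% of 32851 promoters, and CCAAT in 14 of 39 (35.9%), against 37.5% of genes and 33.8% of promoters. CCGGAAG was in 13 of 39 (33.3%), against 7.83% of genes and 6.91% of promoters. A match describes the letters and is no evidence of binding.

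Among the alpha subunits, which form the gated outer rings of the core, 2 of 7 rose with HFD and all 7 differences were positive (0.10 to 0.56). Over all tested genes, 4.61% rose and 49.9% of differences were positive. Psma1 read 23.0, 21.2 and 24.2 FPKM in the control libraries, 36.0, 30.8 and 35.4 in HFD, and 32.4, 36.8 and 37.0 in HFD+Pc. Every library of both HFD groups exceeded every control library for this gene. The rise was 0.56 ± 0.09 in HFD (adjusted p = 0.0114) and 0.61 ± 0.09 in HFD+Pc against control (adjusted p = 0.00355), and it passed in all 9 fits that left out 1 library. Psma3 read 16.9, 15.4 and 15.9 FPKM in control, 21.7, 18.9 and 22.5 in HFD, and 22.7, 22.5 and 23.7 in HFD+Pc. It rose by 0.37 ± 0.08 with HFD (adjusted p = 0.0257) and by 0.49 ± 0.08 in HFD+Pc against control (adjusted p = 0.00444), but the first call was lost without any 1 of control replicates 1, 2 and 4 and HFD replicates 1 and 3 (adjusted p up to 0.0875). Psma6, the gene with the highest level, averaged 64.6 ± 1.64 FPKM in control, 81.0 ± 9.34 in HFD and 75.7 ± 1.92 in HFD+Pc (SD, n = 3), and its differences from control (0.32 ± 0.09 and 0.23 ± 0.09) did not pass. Psma7 had the smallest difference in HFD, 0.10 ± 0.10, and Psma4 that in HFD+Pc against control, 0.04 ± 0.08. Psma5 had 2 near-identical copies elsewhere in the genome that read 29.3% of its level, so its own reads are uncertain. Its difference in HFD was 0.25 ± 0.11, and 0.34 alone against 0.33 with the copies added on recovered reads.

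In the beta ring, 1 of 7 genes rose with HFD (4.61% of all tested genes rose), and 4 of 7 differences were negative. Psmb2, a beta subunit without a proteolytic site, read 37.1, 34.0 and 34.2 FPKM in control, 44.8, 43.9 and 44.0 in HFD, and 36.0, 43.1 and 42.2 in HFD+Pc. Its rise of 0.32 ± 0.09 (adjusted p = 0.0444) held with a library left out only without HFD+Pc replicate 1, with an adjusted p of up to 0.133 in the other 8 fits. Against control, HFD+Pc differed by 0.20 ± 0.09 (adjusted p = 0.126), with overlap in replicate 1. None of the 3 proteolytic subunits passed in HFD against control: Psmb5 differed by -0.08 ± 0.08, Psmb6 by -0.12 ± 0.14 and Psmb7 by -0.03 ± 0.10. The remaining beta genes Psmb1, Psmb3 and Psmb4 differed by -0.01 to 0.15, and Psmb3 had 7 near-identical copies that read 22.6% of its level.

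In the ATPase ring, 2 of 6 genes rose with HFD (4.61% of all tested genes rose). For 5 of 6 the HFD libraries were all above the control libraries, against 16.5% of all tested genes. Psmc6 (Rpt4) read 19.99, 18.96 and 18.73 FPKM in control, 29.5, 25.4 and 29.7 in HFD, and 27.4, 26.9 and 27.0 in HFD+Pc. The spread within HFD+Pc was the smallest of the 3 groups here (SD 0.263), and no HFD or HFD+Pc library reached down to control. Its rise was 0.53 ± 0.08 with HFD (adjusted p = 0.00773) and 0.47 ± 0.08 in HFD+Pc against control (adjusted p = 0.00448), in all 9 fits with a library left out. Psmc2 (Rpt1) read 11.5, 10.8 and 11.3 FPKM in control, 14.3, 15.0 and 15.7 in HFD, and 13.2, 16.9 and 18.0 in HFD+Pc, with no overlap against control. It rose by 0.39 ± 0.10 (adjusted p = 0.047) and by 0.47 ± 0.10 (adjusted p = 0.0131), the first of which held only without HFD+Pc replicate 1 or 4 when a library was left out (adjusted p up to 0.132), and the second was lost only without HFD+Pc replicate 3 (0.0515). Psmc3, Psmc4 and Psmc5 differed by 0.22 to 0.29 in HFD without passing. Psmc1 (Rpt2) differed by -0.02 ± 0.10.

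The non-ATPase subunits of the 19S particle were led by Psmd14, the deubiquitinase that removes ubiquitin chains at the entry of the core. It read 13.01, 12.71 and 11.76 FPKM in control, 17.8, 17.5 and 22.7 in HFD, and 17.2, 20.9 and 20.1 in HFD+Pc, with no overlap between control and either HFD group. The rise was 0.58 ± 0.11 with HFD (adjusted p = 0.0176; 0.0521 without control replicate 2) and 0.59 ± 0.11 in HFD+Pc against control (adjusted p = 0.00724). The other 10 genes did not pass in HFD against control, with differences from -0.05 (Psmd8) to 0.30 (Psmd2). Of these, the scaffold subunits Psmd1 (Rpn2) and Psmd2 (Rpn1) differed by 0.30 ± 0.11 and 0.30 ± 0.09, and their HFD libraries lay above control in each case. Psmd7, a lid subunit, differed by 0.08 ± 0.11 in HFD, by -0.12 ± 0.11 in HFD+Pc against HFD and by -0.04 ± 0.11 in HFD+Pc against control.

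**Figure D3:**
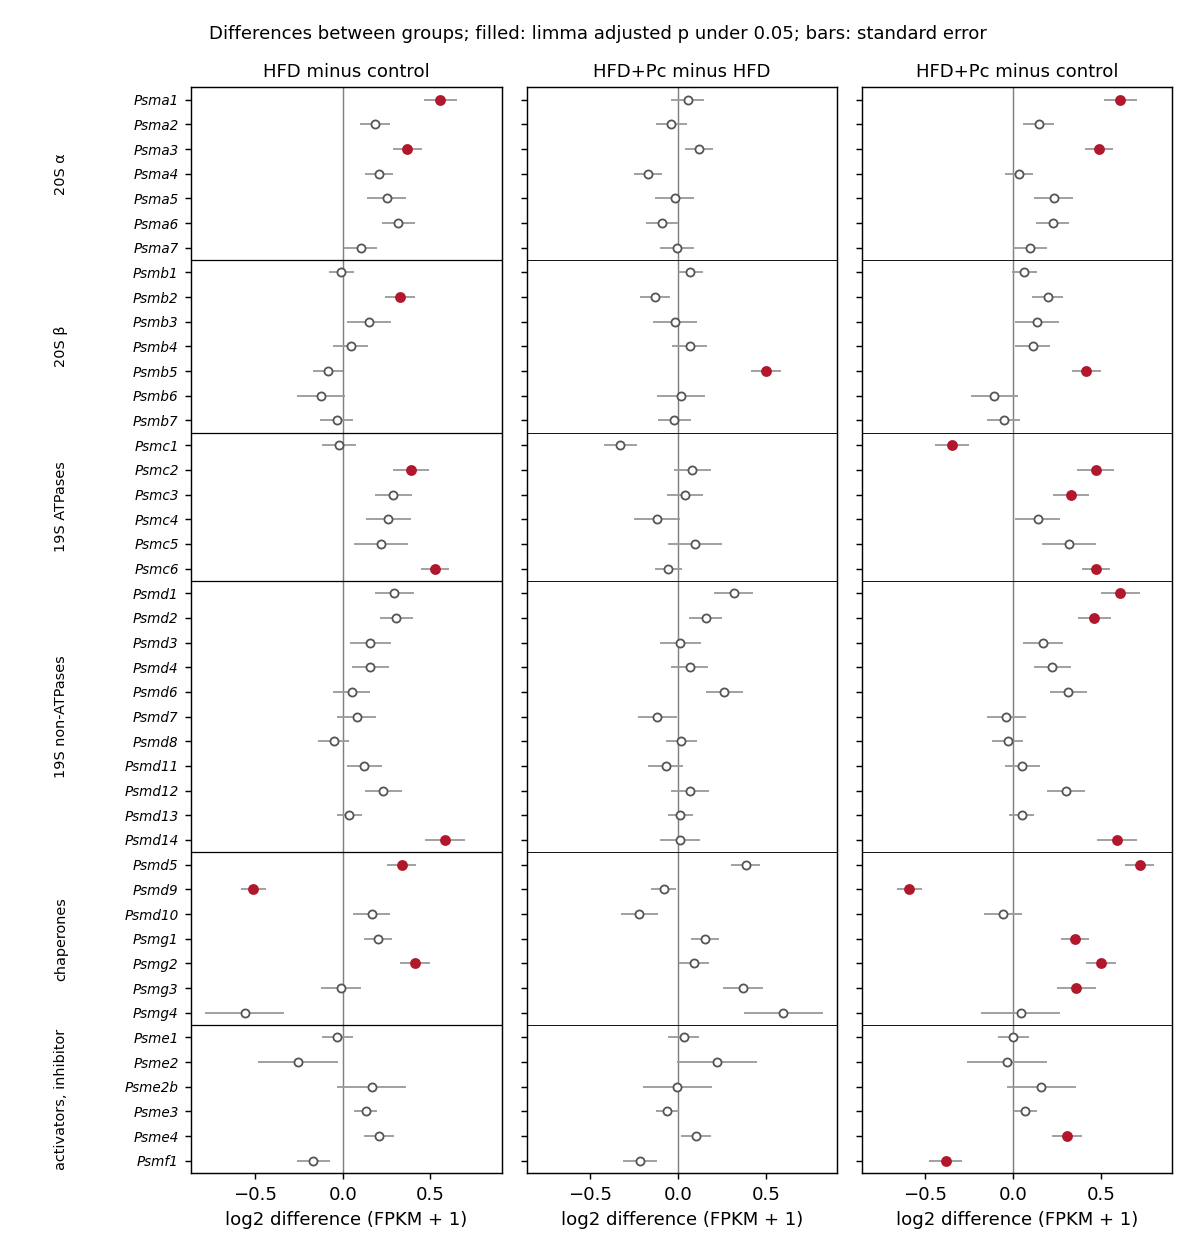
Log2 differences on the FPKM + 1 scale (horizontal axes) for the 44 genes in the 3 comparisons, with bars of 1 standard error; filled points passed at an adjusted p under 0.05 in limma. There are 9 filled points in HFD minus control, 1 (Psmb5) in HFD+Pc minus HFD, and 17 in HFD+Pc minus control.

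The assembly chaperones split in direction. Psmd5 (S5b), which binds Rpt1 and Rpt2 during assembly, read 3.70, 4.18 and 4.08 FPKM in control, 5.16, 4.92 and 5.81 in HFD, and 6.79, 7.35 and 7.51 in HFD+Pc, so that no 2 groups overlapped. It rose by 0.34 ± 0.08 with HFD (adjusted p = 0.035; up to 0.106 and lost without any 1 of control replicates 1, 2 and 4, HFD replicates 1 and 3 and HFD+Pc replicate 3) and by 0.72 ± 0.08 in HFD+Pc against control (adjusted p = 0.00148, in all 9). Psmd9 (p27), which binds Rpt4 and Rpt5, ran the other way: 5.73, 5.75 and 6.47 FPKM in control, 3.82, 3.85 and 4.02 in HFD, and 3.58, 3.53 and 3.77 in HFD+Pc. All 6 libraries of the HFD groups lay below the control libraries. It was the 1 proteasome gene that fell with HFD, by 0.51 ± 0.07 (adjusted p = 0.00668), and it fell by 0.59 ± 0.07 in HFD+Pc against control (adjusted p = 0.00163); both calls held in all 9 fits with a library left out. Psmd9 shares 25.5% of its exon bases with a gene on the opposite strand that is not analysed here, and whether the authors counted by strand is not given in the sources used here. Psmd10 (gankyrin), which binds Rpt3, differed by 0.16 ± 0.11 in HFD and did not pass.

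Among the alpha ring chaperones, Psmg2 read 5.14, 5.08 and 5.63 FPKM in control, 7.74, 7.44 and 6.88 in HFD, and 7.04, 8.38 and 8.35 in HFD+Pc, with both HFD groups above control. It rose by 0.41 ± 0.09 with HFD (adjusted p = 0.0223; lost without control replicate 1 or 2 or HFD replicate 1 or 2, up to 0.0739) and by 0.50 ± 0.09 in HFD+Pc against control (adjusted p = 0.0051, in all 9). Its partner Psmg1 differed by 0.20 ± 0.08 in HFD (adjusted p = 0.141) and rose by 0.35 ± 0.08 in HFD+Pc against control (adjusted p = 0.0138; lost without control replicate 2 or HFD+Pc replicate 3, up to 0.0543). Psmg3 averaged 1.39 ± 0.174 FPKM in control, 1.38 ± 0.318 in HFD and 2.07 ± 0.229 in HFD+Pc (SD, n = 3). Its rise against control, 0.36 ± 0.11 (adjusted p = 0.0463), held with a library left out only without HFD replicate 3, with an adjusted p of up to 0.135 in the other 8 fits. Psmg4, the shortest gene of the set (555 bases), read 9.54, 10.3 and 10.2 FPKM in control, 10.51, 4.41 and 5.68 in HFD, and 9.995, 10.9 and 10.1 in HFD+Pc. HFD replicate 1 read with the other groups and replicates 2 and 3 apart from them, and neither the difference of -0.56 ± 0.22 from control nor that of 0.60 ± 0.22 in HFD+Pc against HFD passed. Without HFD replicate 1 both did, at -0.87 (adjusted p = 0.013) and 0.91 (adjusted p = 0.0257).

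Of the activators and the inhibitor, none passed in limma in HFD against control (1 with an unadjusted p under 0.05, and 0 by limma-voom). Over all tested genes, 3052 of 10988 had an unadjusted p under 0.05 in limma there. In HFD+Pc against control, Psmf1 (PI31), described as an inhibitor of the core in vitro, fell and Psme4 (PA200), a large nuclear activator, rose. Psmf1 read 6.62, 7.77 and 6.49 FPKM in control, 5.44, 6.11 and 6.70 in HFD, and 5.37, 4.75 and 5.13 in HFD+Pc, which lay below both other groups. It fell by 0.39 ± 0.10 (adjusted p = 0.0191; lost without control replicate 2 or HFD+Pc replicate 3, up to 0.0716). Psme4 rose from 17.7 ± 0.994 to 22.2 ± 1.93 FPKM (SD, n = 3), a difference of 0.31 ± 0.08 (adjusted p = 0.0286; lost without control replicate 1 or 4 or HFD+Pc replicate 1 or 3, up to 0.0985). The subunits of the PA28 activators Psme1 and Psme3 differed by 0.00 and 0.07. Psme2 and Psme2b are near-identical in sequence, so reads could be split between them in different ways. Their sum on recovered reads differed by 0.02 in HFD against control, by 0.04 in HFD+Pc against HFD and by 0.06 in HFD+Pc against control.

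HFD+Pc against HFD holds the diet constant and asks what gavage with the bacterium adds, where bacterium and gavage cannot be told apart. Here 1 of 44 proteasome genes rose and 0 fell by limma (2.27% and 0%), where 0.182% of all tested genes rose and 0.446% fell. An unadjusted p under 0.05 in limma was held by 8 of the 44, against 1718 of 10988 over all tested genes. On the recovered reads, limma-voom also called 1 proteasome gene, and 179 genes in all. The 3 genes whose HFD+Pc libraries were all higher (6.82%) compare with 10.2% of all genes, and the 6 whose libraries were all lower (13.6%) with 9.56%. The direction of the 44 genes depended on the scaling: 26 differences were positive with the deposited FPKM, 21 with upper-quartile scaling and 14 with plain library totals. The median difference over the 44 genes was 0.02, against 0.01 over all tested genes.

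The gene that rose was Psmb5, the chymotrypsin-like site of the core and the target of proteasome inhibitor drugs. It read 55.4, 49.8 and 52.8 FPKM in control, 51.2, 46.5 and 51.3 in HFD, and 65.8, 72.5 and 73.7 in HFD+Pc. All 3 HFD+Pc libraries stood above all 6 others, and control and HFD overlapped. The difference was 0.50 ± 0.08 against HFD (adjusted p = 0.0462) and 0.42 ± 0.08 against control (adjusted p = 0.00932). The call against HFD is close to the threshold: with 1 library left out it passed only without HFD replicate 3 (adjusted p up to 0.143 in the other fits), while the call against control passed in all 9 fits. The other proteolytic subunits passed in no comparison. Psmb6 averaged 31.1 ± 3.00, 28.5 ± 3.28 and 29.0 ± 5.04 FPKM and Psmb7 16.4 ± 1.88, 15.9 ± 0.962 and 15.7 ± 1.12 FPKM in control, HFD and HFD+Pc (SD, n = 3). Within a library, the log2 ratio of Psmb5 to the median of the other 6 beta genes was 0.93, 0.89 and 1.0 in control, 0.74, 0.83 and 1.06 in HFD, and 1.48, 1.34 and 1.25 in HFD+Pc. This ratio, which does not depend on library scaling, was highest in the 3 HFD+Pc libraries. Copies of Psmb5 read 1.57% of its level, and with them added the difference on recovered reads stayed at 0.43. Its promoter, among the 5 printed, holds the antioxidant core. So does that of Psmb6, which passed in no comparison, and a link between the match and the levels was not tested.

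Psmc1 (Rpt2), an ATPase whose tail takes part in opening the gate of the core, had a lower level in HFD+Pc while 3 other genes of its ring rose. It read 50.1, 43.9 and 45.9 FPKM in control, 49.7, 42.8 and 45.4 in HFD, and 32.99, 36.88 and 39.36 in HFD+Pc, where every library lay below the other 6. It fell by 0.35 ± 0.10 in HFD+Pc against control (adjusted p = 0.0284; lost without control replicate 1 or 4 or HFD+Pc replicate 1 or 3, up to 0.0945), and the difference from HFD, -0.33 ± 0.10, did not pass (adjusted p = 0.153). Relative to the median of the other 5 ATPase genes, its log2 ratio was 1.05, 0.84 and 0.86 in control, 0.67, 0.60 and 0.55 in HFD, and 0.31, 0.15 and 0.21 in HFD+Pc. The 3 groups did not overlap in this ratio. The log2 ratio of Psmd5 to Psmd9, chaperones of different ATPases, also separated the groups: -0.63, -0.46 and -0.67 in control, 0.43, 0.35 and 0.53 in HFD, and 0.92, 1.06 and 1.0 in HFD+Pc. These 3 ratios were chosen after the values of the genes were seen and carry no test.

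**Figure D4:**
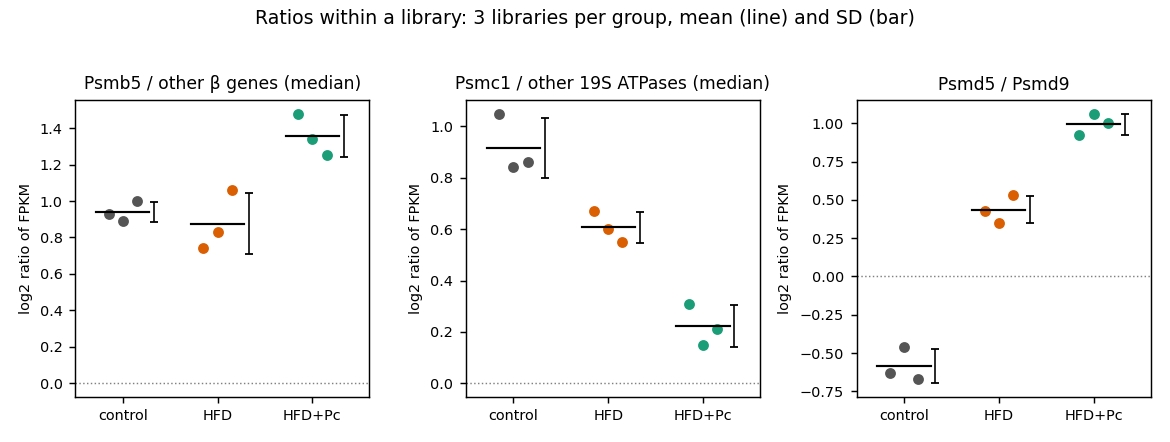
Log2 ratios of FPKM within each library (vertical axes) by group; points are libraries, lines means and bars SD of 3 libraries, and the dotted line marks equal levels. Psmb5 relative to the other beta genes is 0.74 to 1.06 in control and HFD and 1.25 to 1.48 in HFD+Pc, Psmc1 relative to the other ATPases steps from 0.84 or more in control to 0.31 or less in HFD+Pc, and Psmd5 relative to Psmd9 turns from negative in control to positive in both HFD groups.

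Besides Psmb5, no proteasome gene whose groups lay apart passed in HFD+Pc against HFD. Psmd5 was at 0.39 ± 0.08 (adjusted p = 0.0676) and Psmg3 at 0.37 ± 0.11 (adjusted p = 0.165), each with all HFD+Pc libraries above HFD. Psma4, Psmb2, Psmc1, Psmd9, Psmd10 and Psmf1 had all HFD+Pc libraries below HFD, by 0.08 (Psmd9) to 0.33 (Psmc1). Replicate 1 of HFD+Pc weighed on the 19S genes: Psmc5 (Rpt6), for example, read 28.4 FPKM there against 42.7 and 45.0 in replicates 3 and 4, and 33 to 37.8 in HFD. Without that library the median over the 44 genes was 0.11 and 33 were positive, against 0.02 and 26 with it.

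In HFD+Pc against control, 14 of 44 proteasome genes rose (31.8%, against 11.1% of all tested genes) and 3 fell (6.82%, against 11.9%). The libraries of the groups did not overlap for 20 that were higher (45.5%, against 22.1%) and 3 that were lower (6.82%, against 20.8%), and 35 of 44 differences were positive, with a median of 0.17 against 0.01 over all genes. Without HFD+Pc replicate 1 the median was 0.27 and 38 were positive. The genes that rose were alpha subunits (2 of 7: Psma1 and Psma3), a beta subunit (1 of 7: Psmb5), ATPases (3 of 6: Psmc2, Psmc3 and Psmc6), other 19S subunits (3 of 11: Psmd1, Psmd2 and Psmd14), chaperones (4 of 7: Psmd5, Psmg1, Psmg2 and Psmg3) and the activator Psme4. The 3 that fell were Psmc1, Psmd9 and Psmf1. Between 10 genes (without HFD+Pc replicate 3) and 18 (without HFD+Pc replicate 1) passed when 1 library was left out.

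Psmd1 (Rpn2), a scaffold of the 19S base, read 13.4, 12.3 and 11.1 FPKM in control, 13.7, 14.6 and 17.8 in HFD, and 17.6, 20.9 and 19.4 in HFD+Pc. Control lay lowest, and HFD and HFD+Pc touched at a single library each. It rose by 0.61 ± 0.11 against control (adjusted p = 0.00622). Psmd2 (Rpn1), which docks ubiquitin receptors, averaged 35.5 ± 1.24, 44.0 ± 1.79 and 49.4 ± 5.73 FPKM in control, HFD and HFD+Pc (SD, n = 3) and rose by 0.46 ± 0.09 in HFD+Pc against control (adjusted p = 0.00956). Both held in all 9 fits with a library left out. Psmc3 (Rpt5), at 24.6 ± 0.579 FPKM in control and 31.4 ± 4.27 in HFD+Pc (SD, n = 3), rose by 0.33 ± 0.10 (adjusted p = 0.0449), and this held with a library left out only without HFD+Pc replicate 1 (adjusted p up to 0.142 in the other 8 fits).

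**Figure D5:**
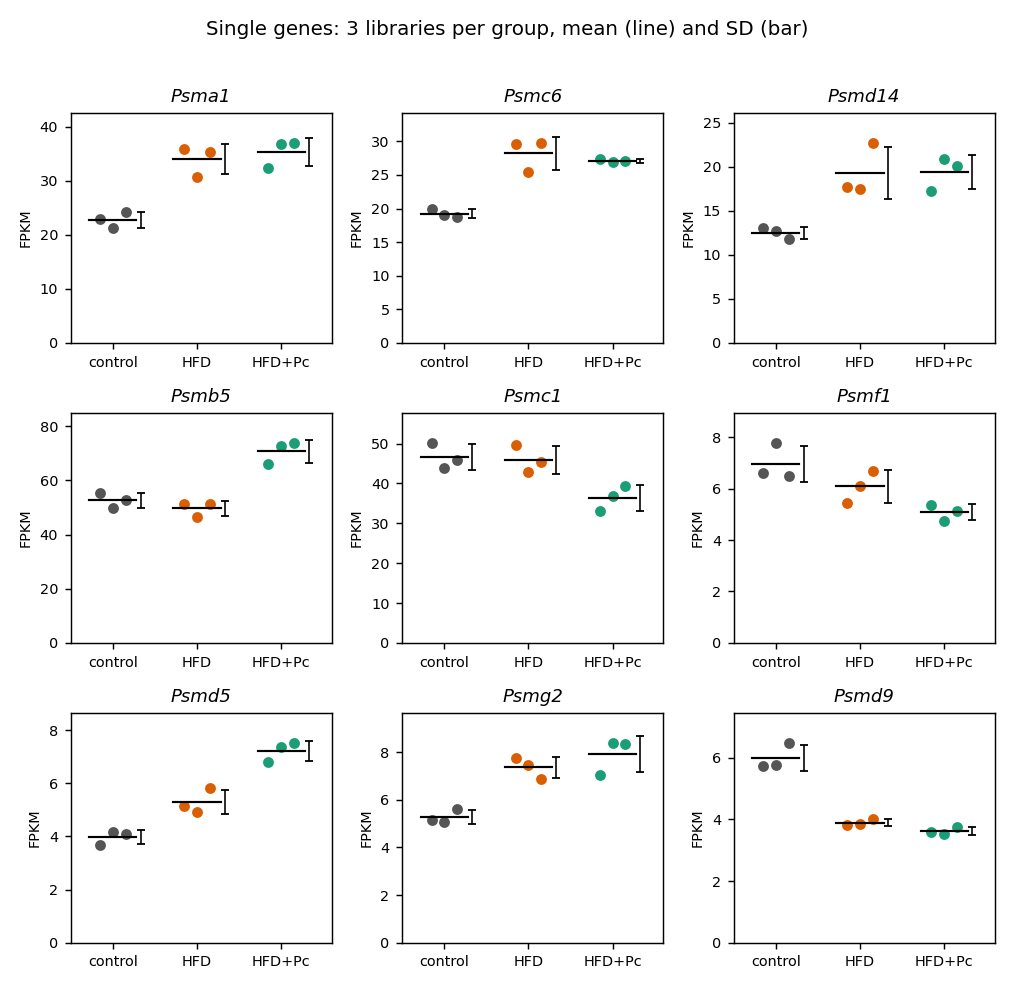
FPKM (vertical axes, from 0) of 9 genes in the 3 groups; points are libraries, lines means and bars SD of 3 libraries. Psma1, Psmc6, Psmd14 and Psmg2 are higher in both HFD groups than in control, Psmb5 only stands apart in HFD+Pc (65.8 to 73.7 FPKM), Psmc1 and Psmf1 are lowest in HFD+Pc, and Psmd5 and Psmd9 run in opposite directions.

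The immunoproteasome genes, whose products replace the proteolytic subunits where interferon acts, fell with HFD or did not pass. Psmb8, the counterpart of Psmb5, read 5.83, 5.97 and 6.00 FPKM in control, 3.60, 4.24 and 2.57 in HFD, and 4.79, 3.90 and 3.87 in HFD+Pc, with control above both. It fell by 0.65 in HFD (adjusted p = 0.0207; 0.0626 at most with a library left out) and by 0.42 in HFD+Pc against control (adjusted p = 0.046; up to 0.135). Psmb8 made up 10.1 ± 0.592% of the summed Psmb5 and Psmb8 level in control, 6.56 ± 1.79% in HFD and 5.62 ± 1.0% in HFD+Pc (SD, n = 3). From HFD to HFD+Pc, Psmb8 itself averaged 3.47 and 4.19 FPKM, while Psmb5 was higher. Psmb9 and Psmb10 did not pass in any comparison. Psmb9 made up 12.7 ± 4.25%, 12.6 ± 1.28% and 14.1 ± 5.07% of its sum with Psmb6 in control, HFD and HFD+Pc (SD, n = 3), with overlap between the groups. The share of Psmb10 in its sum with Psmb7 was 39.8 ± 2.41%, 36.1 ± 5.49% and 43.4 ± 1.44%, and the HFD+Pc libraries (42.3 to 45.0%) lay above the HFD libraries (30 to 40.8%) and overlapped with control. Of the 7 genes of the immunoproteasome and peptide transport list, 3 fell in HFD against control (Psmb8, Tap2 and Tapbp), 1 rose in HFD+Pc against HFD and 2 fell in HFD+Pc against control (Psmb8 and Tapbp). The gene that rose was Tap2, a subunit of the peptide transporter, which read 4.17, 3.80 and 4.08 FPKM in control, 2.39, 2.36 and 2.52 in HFD, and 4.39, 3.66 and 3.92 in HFD+Pc. It fell by 0.55 in HFD (adjusted p = 0.00668) and rose by 0.54 in HFD+Pc against HFD (adjusted p = 0.0241; up to 0.109 with a library left out), while Tapbp, the tapasin gene, fell by 0.32 in HFD against control (adjusted p = 0.0482; up to 0.123).

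Among 8 genes for transcription factors of the proteasome and their processing, 1 rose in HFD against control, 0 passed in HFD+Pc against HFD (0 with an unadjusted p under 0.05) and 2 rose in HFD+Pc against control. Nfe2l1 itself averaged 25.1 ± 0.753, 24.8 ± 0.698 and 22.1 ± 1.64 FPKM in control, HFD and HFD+Pc (SD, n = 3) and did not pass. Nfe2l2, the oxidative stress factor, read 9.87, 13.1 and 15.4 FPKM in control, 19.1, 17.5 and 18.8 in HFD, and 18.5, 17.9 and 17.8 in HFD+Pc. It rose by 0.52 in HFD (adjusted p = 0.0374; up to 0.095 with a library left out) and by 0.49 in HFD+Pc against control (adjusted p = 0.0248; up to 0.0676), with control replicate 1 the lowest library. The small partner Maff rose by 0.47 in HFD+Pc against control (adjusted p = 0.0243). It read 0.474 to 0.618 FPKM in control and reached 1 FPKM only in HFD replicate 1 and HFD+Pc replicates 3 and 4. Maff thus entered the test only through the groups where it was high, and its call carries little weight. Of 5 genes for subunits and assembly factors with other symbols, 0 passed in HFD against control or in HFD+Pc against HFD (2 and 1 with an unadjusted p under 0.05). In HFD+Pc against control Ecpas rose by 0.26 (adjusted p = 0.0318) and Sem1, a small 19S lid subunit, fell by 0.51 (adjusted p = 0.0109). Sem1 differed by -0.25 in HFD against control without passing (adjusted p = 0.163), with all HFD libraries below control. Pomp, the maturation factor of the core, did not pass in any comparison (0.18, 0.05 and 0.22).

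Upstream of the particle, 1 of 5 ubiquitin and activating enzyme genes rose in HFD against control, 0 passed in HFD+Pc against HFD (1 with an unadjusted p under 0.05), and 1 rose and 1 fell in HFD+Pc against control. The activating enzyme Uba6 rose in both HFD groups against control (0.41, adjusted p = 0.037, and 0.54, adjusted p = 0.00756). It read 0.793, 0.952 and 1.01 FPKM in control and above 1 FPKM in every library of both HFD groups. Uba6 thus met the filter only through the groups where it was high, and its calls carry little weight. The polyubiquitin gene Ubb read 168, 180 and 159 FPKM in control, 188, 185 and 116 in HFD, and 89.6, 79.1 and 83.6 in HFD+Pc. Every HFD+Pc library was below every other library, and Ubb fell by 0.998 against control (adjusted p = 0.00497), while the difference of -0.91 from HFD did not pass (adjusted p = 0.0526). Of the 3 deubiquitinases and ligase that bind the particle, Usp14 rose in HFD by 0.38 (adjusted p = 0.0399) and in HFD+Pc against control by 0.57 (adjusted p = 0.00487), and none passed in HFD+Pc against HFD (0 with an unadjusted p under 0.05). None of 6 shuttle factor genes passed in HFD against control, HFD+Pc against HFD or HFD+Pc against control (0, 1 and 1 with an unadjusted p under 0.05). Of 8 genes for p97, the ATPase that extracts proteins for degradation, and its cofactors, Ubxn4 rose in HFD by 0.47 (adjusted p = 0.0162), 0 passed in HFD+Pc against HFD (2 with an unadjusted p under 0.05), and in HFD+Pc against control 4 rose and 1 fell. The 4 were Vcp (0.40, adjusted p = 0.0418), Ubxn1 (0.31, adjusted p = 0.0269), Ubxn4 (0.60, adjusted p = 0.00307) and Faf2 (0.26, adjusted p = 0.0393), and the 1 was Nsfl1c (-0.44, adjusted p = 0.0244). All adjusted p-values of the pathway genes are from the same limma fit. The counts of the pathway lists stand beside 4.61% risen and 5.35% fallen over all tested genes in HFD against control. These shares were 0.182% and 0.446% in HFD+Pc against HFD, and 11.1% and 11.9% in HFD+Pc against control. An unadjusted p under 0.05 in limma was held by 3052, 1718 and 4194 of the 10988 tested genes in the 3 comparisons, in this order. With 3 to 8 genes in a list, 1 call says little about the list. On recovered reads, limma-voom called Ubb (adjusted p = 0.0273) and Nsfl1c (adjusted p = 0.0366) in HFD+Pc against HFD, both lower in HFD+Pc, and called 0 in the other lists where the FPKM fit called 0. Of the 22 calls of pathway genes, 6 passed in every fit with a library left out: Tap2 in HFD against control, and Ubb, Ubxn4, Uba6 (with the limit given above), Sem1 and Usp14 in HFD+Pc against control. The other 16 were lost in at least 1 such fit, with a highest adjusted p of 0.0556 to 0.14.

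Some markers of several cell types also differed between the groups, and in bulk tissue fewer cells of a type and less RNA per cell cannot be told apart. Over all tested genes, 4.61% rose and 5.35% fell in HFD against control, and 0.182% and 0.446% in HFD+Pc against HFD. In HFD+Pc against control 11.1% rose and 11.9% fell, so 1 or 2 calls in a list of 9 to 12 genes are not far from these shares. The 9 hepatocyte markers in the table summed to 52680 to 54190 FPKM in control, 36290 to 39680 in HFD and 40930 to 55740 in HFD+Pc, with 1 fallen in HFD against control and 1 risen and 2 fallen in HFD+Pc against control. Most of these sums was Alb, at 38000 to 39250 FPKM in control, 26090 to 27140 in HFD and 28980 to 41660 in HFD+Pc. Alb did not pass in HFD against control (limma adjusted p = 0.054). The median difference of the 9 markers there was -0.36, and Serpina1a differed by 0.19. Of 10 endothelial markers (108.8 to 120.3 FPKM in control, 76.1 to 97.7 in HFD, 85.2 to 89.7 in HFD+Pc), 3 fell in HFD and 2 in HFD+Pc against control. Of 12 macrophage markers (436.0 to 604.2, 430.6 to 583.4 and 313.8 to 489.7 FPKM), 1 rose in HFD and 2 fell in HFD+Pc against control. Of 5 tested plasma cell markers (56.5 to 76.7, 105.1 to 134.1 and 81.9 to 91.5 FPKM), 3 rose in HFD, 1 fell in HFD+Pc against HFD and 1 rose in HFD+Pc against control. Of 5 erythroid markers (254.4 to 396.7, 233.3 to 358.8 and 168.6 to 232.7 FPKM), 3 fell in HFD+Pc against control. Stellate cell markers (9 tested; 70.7 to 73.1, 57.2 to 66.0 and 57.2 to 68.8 FPKM) had 1 risen and 2 fallen in HFD+Pc against control, and adipocyte markers (3 tested; 4.32 to 6.13, 12.6 to 37.1 and 4.95 to 10.98 FPKM) 1 risen in each comparison with control. The risen adipocyte marker was Cfd, at 0 to 0.128 FPKM in control, so it entered the test only through the HFD groups. In HFD it read 21.8, 9.92 and 5.23 FPKM, highest in replicate 1. Fabp4 and Cidec did not pass in HFD (-0.03 and 0.87). None of 3 tested lymphocyte markers (5.13 to 6.96, 5.98 to 9.07 and 4.73 to 7.54 FPKM) and none of 2 tested bile duct markers (17.8 to 25.5, 23.8 to 39.5 and 19.5 to 32.4 FPKM) passed, although 1 of each list in HFD against control and 1 bile duct marker in HFD+Pc against control had an unadjusted p under 0.05. In HFD against control, an unadjusted p under 0.05 was held by 5 of 9 hepatocyte, 8 of 10 endothelial, 4 of 9 stellate cell and 2 of 12 macrophage markers. So it was by 4 of 5 plasma cell, 2 of 3 adipocyte and 1 of 5 erythroid markers, against 3052 of 10988 tested genes. There limma-voom called 1 stellate cell and 1 erythroid marker where the FPKM fit called 0, and 0 adipocyte markers where it called 1. No marker of any list was at 0 in all libraries, and what part these lists have in the proteasome differences was not tested.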

How the data were processed

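Per the labels' protocols, liver RNA was isolated with Trizol for Illumina sequencing. The submitters' processing notes name HISAT2 2.0.5 and the build GRCm39. The counting tool, its strand setting and the annotation are not given in the sources used here. FPKM values of 54007 entries in 9 libraries were used as deposited; the unit is per the file headers. Symbols came from a gene name table (52093 of 53700 Ensembl identifiers). The proteasome genes, the lists of pathway and marker genes and the tests were chosen with earlier results of these data known. An item of the pathway lists is not reported here.

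A set of 10988 genes that reached 1 FPKM in 3 or more libraries entered limma 3.58.1 (R 4.3.3) as log2(FPKM + 1), with trended and robust variance and a mean for each of the 3 groups, without covariates. Benjamini-Hochberg adjustment ran over the 10988 genes, at a threshold of 0.05. Genes were named if they were proteasome or pathway genes that passed, proteolytic or immunoproteasome subunits, Nfe2l1, Nfe2l2, Pomp, or the largest rise and fall of a role in each comparison. Others singled out, the ratios, sums and promoters were chosen after the values were seen. Whole reads were recovered from the FPKM for 25356 of 25831 genes above 0 with an annotated length (98.2%, within 0.02 of a whole read). A limma-voom fit on them and another with near-identical copies added (BLAST 2.17.0, at least 90% identity over 100 bases and 50% of the gene) were added after the data were seen. Lengths, copies and exon overlaps came from GENCODE M21, of an earlier build than GRCm39, and promoter sequences from RefSeq GRCm38.p6. On simulated data over 10988 genes, drawn with a common spread for all genes, the limma fit recovered 100% of 200 genes changed by 2-fold in each comparison and called 5, 11 and 11 unchanged genes. Real spreads differ between genes, and the largest proteasome difference was 0.72 on the log2 scale, less than 2-fold. The simulation thus checks that the fit runs and gives no rate of recovery or error for the calls reported here. Other alternatives were another pseudocount, 2 looser filters, 2 scalings, fits of the 2 groups alone, a replicate block, plain eBayes, a threshold of 0.1 and each library left out in turn.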

Additional observations from a re-analysis of the deposited data

How the results depend on the processing

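The 44 tested genes held a median of 914 reads in their lowest library, but Psmg4 held 42 and Psmg3 held 60 there, so counting error is larger for these genes. Of 44 proteasome genes, 9 passed in HFD against control; 3 passed with no filter, 14 with copies added on recovered reads, and 3 to 11 with a library left out. In HFD+Pc against HFD, 1 passed; 0 did with a minimum of 0.1 FPKM, no filter, the 2 groups alone or plain eBayes, 2 at a threshold of 0.1, and 0 to 1 with a library left out. In HFD+Pc against control, 17 passed, and 10 to 18 did with a library left out.

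Over all tested genes, 1095 passed in HFD against control; 725 did with a minimum of 0.1 FPKM, 209 with no filter, 680 with the 2 groups alone, 1914 at a threshold of 0.1, and 332 to 1126 with a library left out. In HFD+Pc against HFD, 69 passed; 27 did with a minimum of 0.1 FPKM, 3 with no filter, 120 with upper-quartile scaling, 22 with the 2 groups alone, 30 with plain eBayes, 236 at a threshold of 0.1, 179 on recovered reads with or without copies, and 5 to 123 with a library left out. In HFD+Pc against control, 2538 passed; 1383 did with no filter, and 1396 to 2644 with a library left out. No difference of a named gene that passed changed sign under these alternatives, but differences near 0 that had not passed did in places, such as Psmc1 and Psmd8 in HFD against control. The median over the 44 proteasome genes in HFD+Pc against HFD turned from 0.02 to -0.06 on recovered reads.

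Replicate numbers are shared by 2 libraries in each pair of groups and did not pair them (correlations of same-numbered libraries -0.119 to 0.0533). With a replicate block, 2, 0 and 8 proteasome genes and 232, 3 and 1058 of all genes passed in the 3 comparisons.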
